A study of Homo sapiens with 10 samples.

Results

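The comparison described here is the p21 probe against the control probe in PC-3, a human cell line grown from a bone metastasis of prostate cancer. A nucleic acid probe was transfected into living PC-3 cells and left to hybridise for 24 hours, and the RNA that came down with it on streptavidin beads was measured for microRNAs (miRNAs), a procedure the submitters name miRIP. The groups were PC-3 with a p21 probe and PC-3 with a control probe, both cultured in F12K medium with serum, and each purification was run on 2 PCR panels with different miRNA assays, giving 4 of the 10 samples of the series. The other samples are HepG2, a human liver tumour line, with a control, a p21 or a STAT3 probe. There was 1 purification per condition and 1 well per assay, so the differences below have no replicate check and are given without p-values. None of the sources used here gives the probe sequences.

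An assay counted as detected at a Cq of at most 35 (Cq is the PCR cycle at which the signal crosses the threshold, so low values stand for more template and 1 cycle was taken as 1 doubling). Of 745 miRNA assays for 742 miRNA names, 59 were detected with either probe in PC-3: 43 with the p21 probe only (5.77% of all assays), 10 with both probes and 6 with the control probe only (0.805%). The value of an assay is the control Cq less the p21 Cq on the same panel. Where the control was above 35 or gave no Cq, the value is a lower bound, computed with the control at Cq 35. Being detected with the p21 probe only is how these 43 assays were chosen, so that count and the positive sign of their bounds are descriptions of the choice.

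p21 is the protein of CDKN1A (RefSeq, GRCh38.p14, chr6:36676463-36687332), an inhibitor of cyclin-dependent kinases that halts the cell cycle. PC-3 cells lack functional p53, the main transcriptional activator of CDKN1A. A miRNA guides an Argonaute protein to messenger RNAs mainly through its seed, bases 2 to 8 from its 5′ end, and miRNAs with the same seed form a family that can share targets. Many miRNA genes also lie in clusters that are transcribed together. The amount of p21 mRNA recovered by the probe was not analysed here.

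The mature sequences of the leading assays are shown with the seed in capitals, from RefSeq, because families and clusters are described by them below. Of the 59 assays, 48 matched a mature sequence in the table used, after older panel names were paired with current ones. Only 3 seeds were shared by more than 1 of the 48. The 11 without a match include miR-320a, so its seed was not compared with that of miR-320b. The first shared seed is that of the miR-25 family, whose 2 detected members differ at 3 of 22 bases.
miR-92a: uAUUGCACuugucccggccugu
miR-92b: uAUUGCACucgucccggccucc
The second is that of let-7, where let-7b differs from let-7e at 3 and from let-7d at 4 of 22 bases.
let-7b: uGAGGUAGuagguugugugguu
let-7e: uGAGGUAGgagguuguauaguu
let-7d: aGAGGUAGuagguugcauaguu
The third is that of miR-221 and miR-222, encoded next to each other on the X chromosome.
miR-221: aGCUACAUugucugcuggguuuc
miR-222: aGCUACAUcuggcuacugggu
Members of the miR-23a cluster have different seeds and come from a shared transcript.
miR-23a: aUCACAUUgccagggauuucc
miR-27a: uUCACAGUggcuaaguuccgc
miR-24: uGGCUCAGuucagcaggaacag
The remaining sequences shown are both arms of the miR-423 hairpin, miR-193b, miR-940, miR-638 and miR-106a, the 1 detected member of the miR-17 family.
miR-423-5p: uGAGGGGCagagagcgagacuuu
miR-423-3p: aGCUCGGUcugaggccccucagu
miR-193b: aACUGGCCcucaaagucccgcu
miR-940: aAGGCAGGgcccccgcucccc
miR-638: aGGGAUCGcgggcggguggcggccu
miR-106a: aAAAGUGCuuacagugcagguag

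RNAs that are not miRNAs served as a reference for the general level of each purification. U6 (a spliceosomal RNA) and SNORD38B and SNORD49A (small nucleolar RNAs), were at lower Cq with the p21 probe. On panel 1 U6 had Cq 30.63 in the control and 28.62 with the p21 probe, SNORD38B 30.41 and 28.46, and SNORD49A 29.85 and 27.41. On panel 2 the pairs were 29.80 and 28.82, 30.57 and 29.46, and 29.76 and 28.35. The mean difference of these small RNAs was 2.14 ± 0.26 cycles on panel 1 and 1.17 ± 0.22 on panel 2 (SD over 3 RNAs), and all 6 wells stood higher with the p21 probe. The synthetic RNA UniSp6, added during the assay, differed by 0.49 cycles on panel 1 and -0.59 on panel 2. Each of these 4 RNAs was higher on panel 1 than on panel 2 by 0.85 to 1.09 cycles, with a mean gap of 0.999. The spread of a difference between panels was 0.709 cycles (SD) with this gap and 0.075 without it. UniSp3, the calibrator template in 3 wells per plate, had mean differences of 0.39 on panel 1 and -0.71 on panel 2. Less the UniSp3 mean of its panel, U6 was 1.62 and 1.69 cycles higher with the p21 probe, SNORD38B 1.56 and 1.82, SNORD49A 2.04 and 2.12, and UniSp6 0.10 and 0.12. The 3 UniSp3 wells themselves had an SD of 1.13 cycles within a plate, the only spread between like wells on 1 plate. Their differences between the probes had an SD of 0.470 cycles on panel 1 and 0.886 on panel 2. None of 18 water wells gave a Cq. The part of the small-RNA difference in the miRNA values was not tested.

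**Figure D1:**
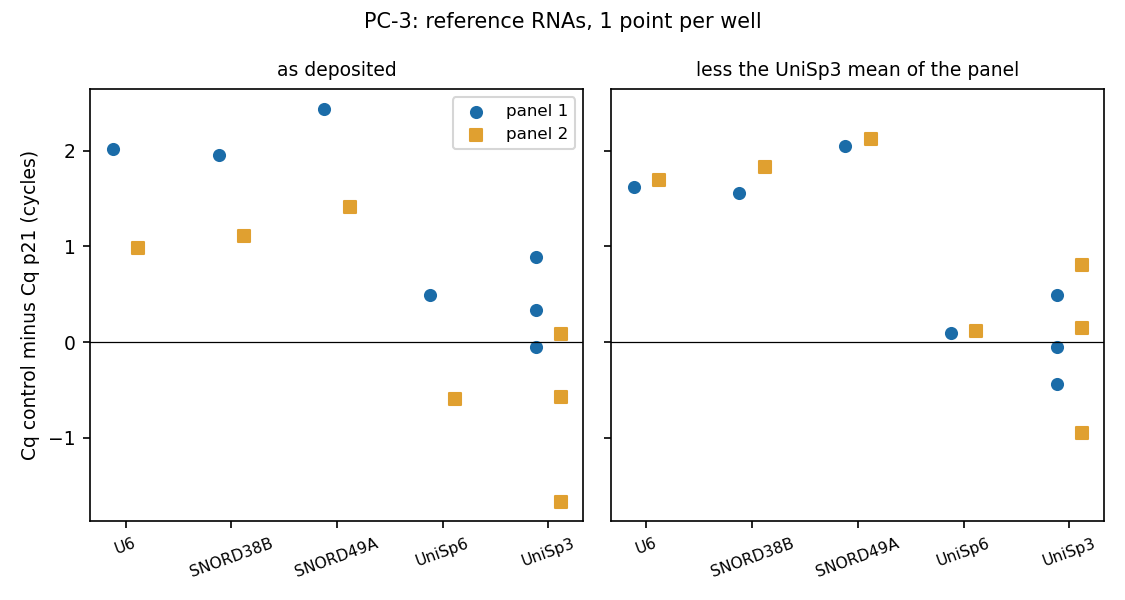
Cq with the control probe minus Cq with the p21 probe (cycles) for reference RNAs in PC-3, 1 point per well, circles for panel 1 and squares for panel 2; left as deposited, right less the mean of the UniSp3 wells of the same panel. On the right the panels lie close together, with U6, SNORD38B and SNORD49A between 1.56 and 2.12 cycles and UniSp6 at 0.10 and 0.12.

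miR-92a, made from the MIR17HG cluster on chromosome 13 and from a related X-linked cluster, had the lowest Cq of all assays detected with the p21 probe only. It gave no Cq in the control and 27.81 in the p21 purification, at least 7.19 cycles apart (146-fold). Its relative miR-92b, from a separate gene on chromosome 1, gave no Cq in the control and 30.88 in the p21 purification, at least 4.12 cycles (17.4-fold). Both bounds stayed above 0 after the small-RNA difference of the panel was taken off, at 5.06 and 1.99 cycles. The other miR-25 family assays (miR-25, miR-32, miR-363 and miR-367) were not detected, with only miR-25 giving a Cq with the p21 probe, at 36.88. The mature miR-92a sequence is the same at chr13:91351361-91351382 (plus strand, within the MIR17HG span) and chrX:134169544-134169565 (minus strand, within MIR106AHG), so the assay cannot tell the genes apart.

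let-7b was second, in a family known to restrain growth-promoting genes such as RAS and HMGA2. It gave no Cq in the control and 28.99 in the p21 purification, at least 6.01 cycles (64.5-fold), or 3.88 after the small-RNA difference. let-7e had no Cq in the control and 31.03 in the p21 purification, at least 3.97 cycles (15.7-fold), or 1.83 after that difference. let-7d reached Cq 34.86 with the p21 probe, so its bound was only 0.14. Of 9 let-7 family assays, these 3 made up all that the p21 purification detected, beside 8.53% of panel 1 assays detected with the p21 probe only. The control detected 0 of the 9, beside 8 of 375 assays on panel 1. let-7g (35.22), let-7c (35.78) and let-7a (37.62) gave a Cq above the limit with the p21 probe, and let-7f, let-7i and miR-98 gave none with either probe. The family members differ by few bases, and how far the assays separate them was not tested.

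miR-320a and miR-320b, which have close mature sequences from different chromosomes, were the 2 miR-320 assays on the panels, and both were detected with the p21 probe only. miR-320a gave no Cq in the control and 30.34 in the p21 purification, at least 4.66 cycles (25.2-fold). miR-320b gave none and 32.35, at least 2.65 cycles (6.29-fold), on panel 2. After the small-RNA difference of each panel the bounds were 2.52 and 1.49.

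miR-940 was the leading assay for which the control gave a value too. Its Cq was 35.59 with the control probe, just above the limit, and 30.51 with the p21 probe. The bound was 4.49 cycles (22.5-fold), and the measured difference 5.08 (33.9-fold), or 2.36 as a bound after the small-RNA difference. Its gene lies at chr16:2271806-2271826, within the span of MIR3677HG, and 81.0% of its bases are G or C.

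Both arms of the miR-423 hairpin, a widely expressed miRNA often used as a reference, came down with the p21 probe. miR-423-5p gave no Cq in the control and 32.24 with the p21 probe on panel 1, at least 2.76 cycles (6.75-fold). On panel 2 the same miRNA gave 39.16 and 35.77, so it was not detected there, although its measured difference was 3.39 cycles. Its Cq with the p21 probe thus differed by over 3 cycles between panels, more than that of U6, SNORD38B, SNORD49A or UniSp6. miR-423-3p, counted among reported p21 regulators, gave no Cq in the control and 32.80 in the p21 purification, at least 2.20 cycles (4.58-fold). After the small-RNA difference the 2 arms on panel 1 had bounds of 0.62 and 0.06.

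The whole miR-23a cluster on chromosome 19, whose members are abundant in many cultured cells, was detected in the p21 purification alone. miR-24 led, at Cq 36.38 in the control and 32.30 with the p21 probe, a bound of 2.70 cycles and a measured difference of 4.08. miR-23a (34.21) and miR-27a (34.91) gave no control Cq and had bounds of 0.79 and 0.09. The mature miR-24 has a second gene on chromosome 9, beside miR-23b and miR-27b, and neither of those was detected. The bound of miR-24 remained above 0 after the small-RNA difference, at 0.56, while those of miR-23a (-1.35) and miR-27a (-2.04) did not, so for the latter a difference from U6 and the small nucleolar RNAs was not measurable.

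The remaining assays among the 15 lowest Cq values were miR-888, miR-638, miR-222, miR-193b and miR-612. miR-888, from an X-linked cluster known from the epididymis, had Cq 35.72 in the control and 32.76 with the p21 probe, a measured difference of 2.95 cycles. miR-638, which lies within the DNM2 span on chromosome 19, had 35.29 and 33.54, a measured difference of 1.75. miR-222, which with miR-221 represses the related inhibitor p27, had 37.40 and 33.64, a measured difference of 3.76, and its neighbour miR-221 had no Cq and 33.92, a bound of 1.08. miR-193b had no Cq and 33.67 (bound 1.33), and miR-612 had 37.51 and 33.71 (measured difference 3.80). The bounds of miR-888 (0.10), miR-638 (0.30) and miR-612 (0.12) stayed just above 0 after the small-RNA difference, and those of miR-222 (-0.78), miR-193b (-0.80) and miR-221 (-1.06) did not.

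**Figure D2:**
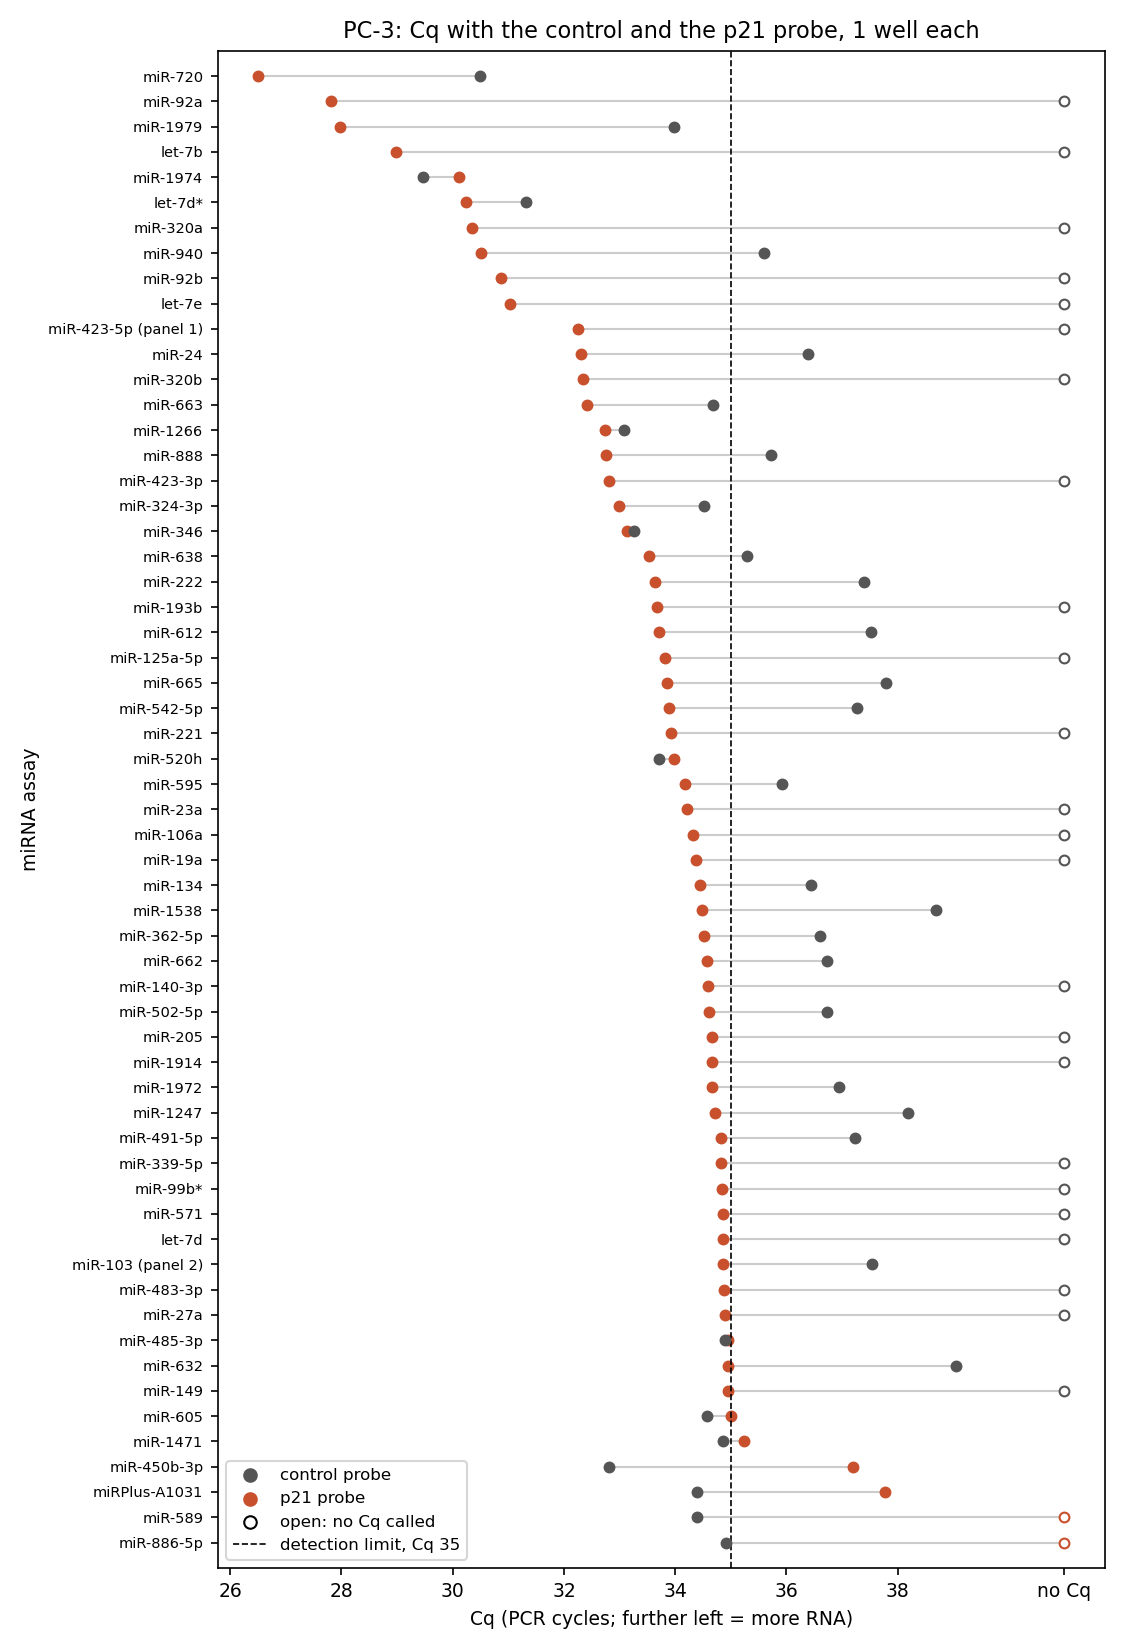
Cq (PCR cycles) with the control probe (grey) and the p21 probe (orange) in PC-3 for the 59 miRNA assays detected with either probe, 1 well each, ordered by the p21 Cq; open points gave no Cq, and the dashed line is the limit of 35. miR-92a and let-7b stand far left with no control Cq, while 24 of the 43 assays detected with the p21 probe only lie within 1 cycle of the limit.

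The other 28 assays detected with the p21 probe only lay between Cq 33.82 and 34.96, so their bounds were at most 1.18 cycles. One of them, miR-339-5p, had a p21 Cq of 34.83 and a bound of 0.17. Of the 43, 19 had a bound of at least 1 cycle and 24 a smaller one, with a median of 0.67; over all 745 assays 3.22% had a difference or bound that large. With the mean of U6, SNORD38B and SNORD49A taken off, 13 of the 43 bounds stayed above 0 and 7 were at least 1 cycle: miR-92a, let-7b, miR-320a, miR-940, miR-92b, let-7e and miR-320b. Less UniSp3 instead, 35 were above 0 and 17 at least 1. A bound under 0 gives no direction.

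For 19 of the 43 the control gave a Cq above the limit, so a measured difference exists, and for 24 it gave none. Those 19 differences ran from 1.74 (miR-595) to 5.08 cycles (miR-940), with a median of 2.95, and 15 exceeded the mean small-RNA difference of their panel. The largest after miR-940 were miR-1538 (4.21), miR-632 (4.09), miR-24 and miR-665 (3.95). miR-1538 and miR-632 had control values of 38.69 and 39.04, near the end of the run. All 19 were positive because an assay enters this group only with the p21 probe below 35 and the control above it. That rule also favours large differences, so the median and the 15 above the small-RNA difference describe the choice too.

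Just inside the limit stood miR-149 (34.96), miR-632 (34.96), miR-27a (34.91), miR-483-3p (34.88) and miR-103 on panel 2 (34.86), and just outside it miR-99b (35.10), miR-1227 (35.10), miR-1224-3p (35.11), miR-151-5p (35.13) and miR-30c (35.15). These Cq values lie closer together than the UniSp3 wells within a plate (SD 1.13). miR-21, among the most abundant miRNAs of many cultured cells, also lay just outside, at 35.36 with the p21 probe and no Cq with the control probe.

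By genomic cluster, taken as hairpins within 10 kb of each other on the same strand, 10 clusters or single hairpins held more than 1 of the 48 assays with a sequence. At chr19:51692612-51693339, within the span of SPACA6, let-7e, miR-125a-5p (Cq 33.82) and the star strand miR-99b* (34.84) were all detected with the p21 probe only, and miR-99b itself missed the limit. In the MIR17HG cluster at chr13:91350605-91351391, miR-92a (27.81) and miR-19a (34.37) were detected, while miR-17, miR-18a and miR-19b gave no Cq and miR-20a 38.18. In the related cluster at chrX:134169378-134170278 miR-106a (34.33) was detected beside the second miR-92a gene. The members of a cluster thus stood at very different Cq, although Cq values of different assays also carry their own efficiency and are not a scale of relative amount. In the miR-106b-25 cluster 0 of 3 were detected with either probe, with p21 Cq values of 35.67 (miR-93), 36.88 (miR-25) and 39.59 (miR-106b).

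Further pairs came from the X chromosome and from chromosomes 9 and 14. miR-362-5p (34.51) and miR-502-5p (34.61), which lie within the span of CLCN5, were both detected with the p21 probe only, with measured differences of 2.09 and 2.11 cycles. let-7d and let-7d* are arms of 1 hairpin; let-7d gave no Cq with the control probe, whereas let-7d* was detected with both probes. In the large imprinted cluster at chr14:101022066-101066801 miR-134 (34.45) was detected with the p21 probe only and miR-485-3p with both. miR-542-5p (33.88) was detected with the p21 probe only, and miR-450b-3p of the same X-linked cluster with the control probe only.

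miRNAs reported to act on p21 itself were counted from 3 lists, beside 7.11% of all assays detected with the p21 probe (38 of 375 on panel 1 and 15 of 370 on panel 2). In the miR-17 family, known to repress p21, 1 of 7 assays (miR-106a, bound 0.67) was detected with the p21 probe only, 3 more gave a p21 Cq above the limit, and 0 were detected with the control probe. Of the 11 assays for miR-302 and its seed relatives (among them miR-372, miR-373 and miR-520), 0 were detected with either probe and none gave any Cq with the p21 probe. Among 11 assays of other reported p21 regulators, 1 (miR-423-3p) was detected, with the p21 probe only. Lists of this size with 0 or 1 detected are near the share over all assays. The miR-34 and miR-449 family, whose miR-34 genes are p53 targets, had 0 of 5 detected. In HepG2 the p21 probe also detected 0 of these 5, and miR-34a and miR-34c-5p were detected with the control probe only. A part of p53 in this was not tested.

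Other families were counted with the p21 probe only, beside 5.77% of all assays. That share was 8.53% on panel 1, which holds most of these family assays, and 2.97% on panel 2. The counts were 2 of 2 for miR-221 and miR-222, 1 of 2 for miR-125, 1 of 3 for miR-193 and miR-365, 1 of 3 assays for miR-103 and miR-107, and 1 of 4 for miR-18 and miR-19. The miR-15/16 family (0 of 7), the miR-30 family (0 of 5), miR-99 and miR-100 (0 of 3) and miR-191 with miR-425 (0 of 3 assays) were not detected, and miR-30c and miR-99b came closest. At that share of all assays, 0 in lists this short says nothing particular about them. The families described earlier stand beside the same shares, with 3 of 9 for let-7, 2 of 6 for miR-25, 2 of 2 for miR-320 and 3 of 3 for the miR-23a cluster. Of 14 assays for miRNAs abundant in most cultured cells, 3 (miR-24, miR-23a and miR-103 on panel 2) were detected with the p21 probe and 0 with the control probe. miR-103 gave no Cq on panel 1 with either probe, and 37.53 and 34.86 on panel 2.

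Markers of cell types were also read beside the 7.11% of all assays detected with the p21 probe (38 of 375 on panel 1, where all the markers lie). Of 8 epithelial or prostate-line miRNAs, miR-221, miR-222 and miR-205, the last known from basal prostate epithelium, were detected with the p21 probe only. miR-205 had a p21 Cq of 34.66 and a bound of 0.34, or -1.79 after the small-RNA difference. miR-21 (35.36), miR-31 (38.47) and miR-375 (39.15) were above the limit with the p21 probe. The list was not particular to PC-3: in HepG2 5 of the 8 were detected with the p21 probe, miR-205 at 32.65. miR-141, miR-200c and the rest of the miR-200 family gave no Cq with either probe. The liver (4), muscle (4), neural (5), blood-cell (7) and stromal (4) lists had 0 assays detected with either probe, which is near that share for lists this short. Their lowest Cq values were 36.10 for the muscle miRNA miR-133a in the control and 36.30 for the neural miRNA miR-128 with the p21 probe.

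Among the 10 assays detected with both probes, the withdrawn names miR-1979 and miR-720 differed most. Their sequences have been reassigned to other small RNAs. miR-1979 had Cq 33.97 in the control and 27.97 with the p21 probe, 6.01 cycles apart (64.4-fold). miR-720 had 30.49 and 26.50, 3.98 cycles (15.8-fold), the lowest p21 Cq of any miRNA assay. miR-663 had 34.68 and 32.42 (2.26 cycles), miR-324-3p 34.51 and 32.99 (1.53), and let-7d* 31.31 and 30.24 (1.07). These 5 were at least 2-fold higher with the p21 probe (50.0% of the 10), and 0 were at least 2-fold lower.

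The remaining 5 differed by less than 1 cycle, and by less than the within-plate SD of the UniSp3 wells (1.13), as did let-7d*. That SD is of Cq values, not of differences. Each of the 5 was also under the SD of the UniSp3 differences of its panel (0.470 on panel 1, 0.886 on panel 2). miR-1266 had Cq 33.08 in the control and 32.74 with the p21 probe (0.35), and miR-346 had 33.26 and 33.14 (0.12). miR-485-3p had 34.90 and 34.95 (-0.05), miR-520h 33.71 and 33.98 (-0.28), and the withdrawn miR-1974 had 29.46 and 30.11 (-0.64). All 5 at or above 1 cycle were on panel 1, and 4 of the 5 smaller ones on panel 2. With the small-RNA mean of the panel taken off, only 2 of the 10, miR-720 (1.85) and miR-1979 (3.87), stayed 1 cycle or more higher and 5 stood 1 cycle or more lower, while less UniSp3 the split was again 5 and 0, with miR-1266 (1.06) in place of let-7d* (0.68).

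The authors' deposited table of folds lists miR-92a at 103.8, let-7b at 45.8, miR-320a at 17.9 and miR-92b at 12.4. The authors' deposited table lists miR-1979 at 1.91, where the Cq values scaled on UniSp6 give 45.7. It lists miR-193b at 0.710, the value that 335 entries of the authors' deposited table share, where the Cq values give at least 1.79. miR-1914 (1.51) and miR-1972 (0.710) also stand there at a value shared by many entries, where the Cq values give at least 1.91 for each. The 1.909 listed for miR-1979 equals the value that the Cq values give for miR-1972. The reason for these gaps was not tested, so the listed 1.91 should not be read as a measured fold of miR-1979.

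In the control purification alone 6 assays were detected, led by miR-450b-3p. It had Cq 32.80 in the control and 37.20 with the p21 probe, a difference of -4.39 cycles, or at least 4.58-fold less with the p21 probe at the limit. miRPlus-A1031, an assay of the manufacturer, had 34.39 and 37.77. miR-589 (34.40) and the withdrawn miR-886-5p (34.92) gave no Cq with the p21 probe. miR-605 (control Cq 34.57) and miR-1471 (34.86) passed 35 only narrowly with the p21 probe, at differences of -0.44 and -0.38 cycles.

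The number of assays detected depended on the limit and on the general difference between purifications. The p21 probe gave 53 assays and the control probe 16 at Cq 35. On panel 1 the p21 purification had 38 and the control 8 of 375 assays, and on panel 2 15 and 8 of 370, with 32 and 11 assays detected with the p21 probe only. At Cq 32 the counts were 10 and 3, and at Cq 37 they were 114 and 57. When the control limit was moved by the small-RNA difference, to 37.14 on panel 1 and 36.17 on panel 2, a setting added after the data were seen, the control probe gave 48 assays against 53. Of these, 19 were common to both probes, 34 were seen in the p21 purification alone and 29 in the control alone. On panel 1 the counts were then 38 and 29, and on panel 2 15 and 19.

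**Figure D3:**
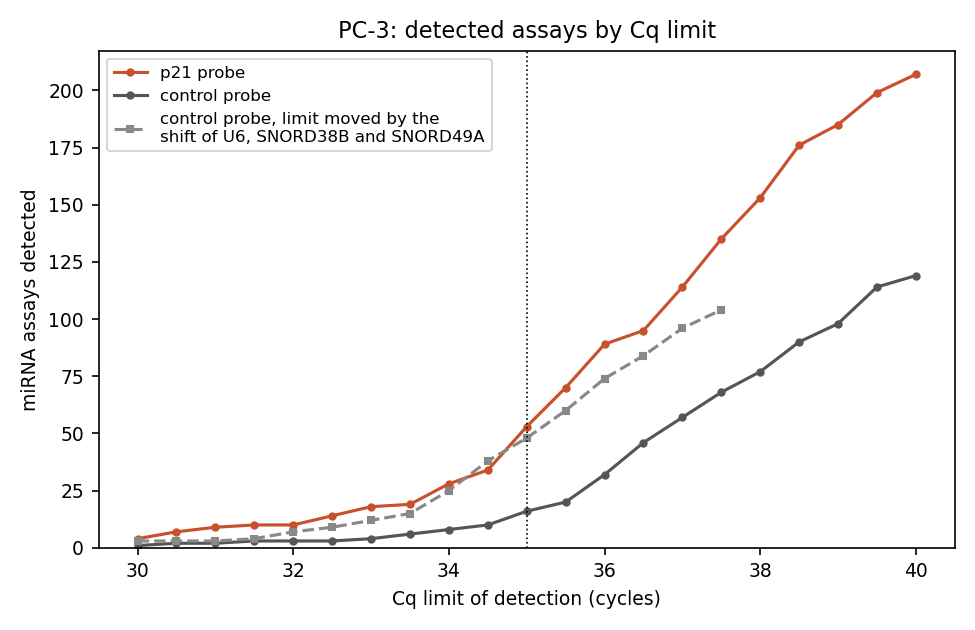
Number of the 745 miRNA assays detected in PC-3 (y axis) by the Cq limit used (x axis, cycles) with the p21 probe (orange), the control probe (dark grey), and the control probe with its limit moved by the mean difference of U6, SNORD38B and SNORD49A of each panel (dashed, not drawn at the highest limits, where the moved limit passes the last cycle). At 35 the values are 53, 16 and 48.

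Base composition was compared over the 240 assays whose panel name is itself a RefSeq mature name, since older names do not state the arm. The 20 of these detected with the p21 probe had a median of 58.1% G and C (40.9 to 81.0), and the 220 others 50.0% (25.0 to 85.7). In HepG2 the same split gave 56.5% for 53 assays and 50.0% for 187. Over all 37 assays detected with the p21 probe only that matched a sequence the median was 54.5% (34.8 to 81.0). miR-940, miR-638, miR-1247, miR-1914 and miR-665 were among those with at least 70.0%. Primer and assay design also depend on base composition, and their part was not tested.

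The same assays were mostly detected with the p21 probe in HepG2. Of the 53 assays detected with the p21 probe in PC-3, 45 were detected with it in HepG2, which is 84.9% of the PC-3 list and 21.3% of the 211 in HepG2 (28.3% of all assays). Of the 45, 39 had the lower Cq in HepG2, with a median gap of 2.41 cycles. Across these 45 assays the p21 Cq values of the lines had a Pearson r of 0.65 and a Spearman rho of 0.56, as a description over assays that share their primers and the limit.

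Of the 43 assays detected with the p21 probe only in PC-3, 24 were detected with both probes in HepG2. Of the rest, 11 were detected there with the p21 probe only, 1 with the control probe only and 7 with neither. Among all 745 assays, HepG2 had 103 detected with both, 108 (14.5%) in the p21 purification alone and 22 (2.95%) in the control purification alone. The 24 had a median difference of 3.49 cycles in HepG2, and 22 were at least 2-fold higher with the p21 probe, against 54.4% of all 103 assays detected with both probes there, whose median was 1.19. These HepG2 values are not centred. The small RNAs there also had lower Cq with the p21 probe. On panel 1 U6 had 30.63 in the control and 28.78 with the p21 probe, SNORD38B 30.70 and 27.88, and SNORD49A 28.96 and 26.33. On panel 2 the pairs were 30.14 and 28.32, 30.46 and 27.28, and 28.73 and 26.2. The UniSp3 wells of panel 1 went the other way. The part of these shifts in the HepG2 differences was not tested. miR-92a had HepG2 Cq values of 30.58 in the control and 21.54 with the p21 probe, 9.04 cycles apart, where PC-3 gave at least 7.19. let-7b had 30.32 and 25.04 (5.28 cycles, at least 6.01 in PC-3), and miR-940 31.90 and 28.92 (2.98, at least 4.49). miR-193b had 32.06 and 25.35, 6.71 cycles apart, where the bound in PC-3 was 1.33. Bounds cannot show that a difference was smaller in PC-3, because the control Cq there is unknown. miR-888, at a measured difference of 2.95 in PC-3, in HepG2 had 33.61 and 33.99 (-0.39). The difference between the lines was not tested.

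**Figure D4:**
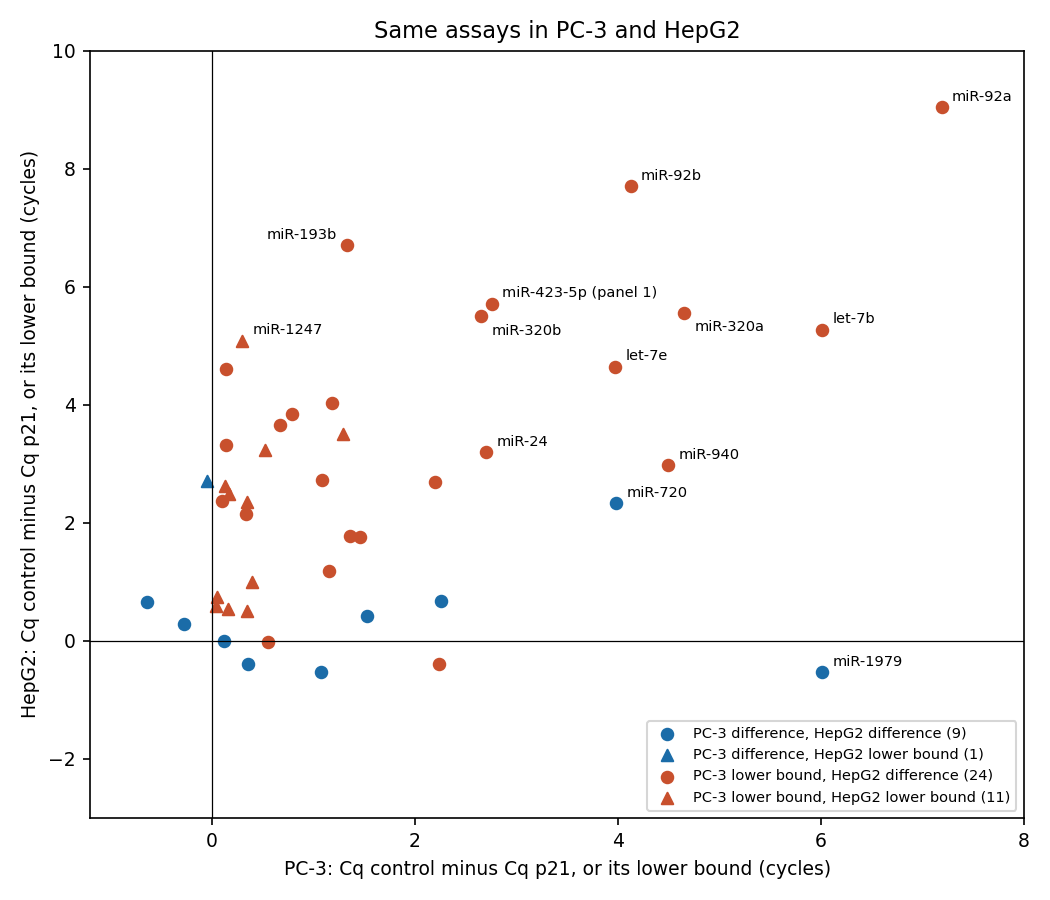
Cq with the control probe minus Cq with the p21 probe, or its lower bound (cycles), for the 45 assays detected with the p21 probe in both lines, PC-3 on the x axis and HepG2 on the y axis; circles are HepG2 differences, triangles HepG2 bounds, blue PC-3 differences and orange PC-3 bounds. miR-92a is high in both lines (at least 7.19 and 9.04), while miR-1979 is high in PC-3 (6.01) and at -0.54 in HepG2. Values of both lines are uncentred.

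The 8 assays detected with the p21 probe in PC-3 but not in HepG2 all had Cq values of 33.88 or more in PC-3. miR-542-5p gave 37.27 in the control and 33.88 with the p21 probe in PC-3, and no Cq with either probe in HepG2. miR-140-3p, known from cartilage, gave no Cq and 34.58 in PC-3, and 35.20 and 39.46 in HepG2. miR-362-5p had 36.60 and 34.51 in PC-3 and 35.83 and 37.64 in HepG2, and miR-662 had 36.73 and 34.57 against 35.66 and 37.72, all HepG2 values above the limit. miR-595 had 35.92 and 34.18 in PC-3 and 34.52 and 35.66 in HepG2, where it was detected in the control. miR-491-5p had 37.24 and 34.83 in PC-3 and 35.98 and 36.12 in HepG2. In HepG2 the p21 Cq was thus the higher for miR-140-3p, miR-362-5p, miR-662, miR-595 and miR-491-5p, and the lower for miR-19a (36.30 and 35.45) and miR-571 (38.69 and 36.33).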

How the data were processed

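The authors deposited unnormalised Cq values from Exiqon SYBR Green miRNA panels, 1 well per assay, per the labels. No source used here names the instrument, threshold or software. The authors also deposited fold ratios, which the file headers describe as 2 to the minus ΔΔCt on an unnamed housekeeping gene. They are headed as logs but are linear: with UniSp6 as normaliser and Cq capped at 35, 708 of 725 comparable entries came out within 0.01 log2 units. Most entries share 1 of 2 values (338 at 1.51 and 335 at 0.71), so their match says little about single assays. Of the assays detected with either probe, 4 were off by more. Groups came from the sample titles. Panels are not replicates, and Cq wells have no read depth. Differences and bounds were computed without centring (Python 3.11.15, pandas 2.3.3) and tested on simulated data. Named were all assays detected with the p21 probe or the control probe only; the 15 lowest p21-only Cq values and all assays detected with both were given individually. Lists, members and markers were chosen with earlier results of these data known. Alternatives were Cq limits from 32 to 37, any called Cq, and centring on the median, U6 with the small nucleolar RNAs, reference assays, UniSp6 or UniSp3. Sequences and positions are RefSeq's (GRCh38.p14); older names were paired with current ones by hand. Reference-table gene spans carry no exons, so only spans are named. Seed matches in the p21 mRNA were not analysed here.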

Additional observations from a re-analysis of the deposited data

Results flagged for a closer look

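In 6 assays detected with both probes in both lines, the difference (control minus p21 Cq) had opposite signs in PC-3 and HepG2, each from 1 purification per condition, and the difference between lines was not tested. miR-1979 was at 6.01 cycles in PC-3 and -0.54 in HepG2, and let-7d* at 1.07 and -0.53. Both are on panel 1 and uncentred, and the sign can depend on the reference. In HepG2 the UniSp3 wells of that panel had Cq 21.06, 20.51 and 20.56 in the control, and 24.91, 21.60 and 22.46 with the p21 probe. U6 went the other way there, from 30.63 to 28.78. Centred HepG2 values were not computed. In PC-3 let-7d* stood at -1.07 after the small-RNA mean. miR-1266 (0.35 and -0.40), miR-346 (0.12 and -0.01), miR-520h (-0.28 and 0.29) and miR-1974 (-0.64 and 0.67) were all under 1 cycle in both lines, less than the within-plate SD of the UniSp3 wells in PC-3 (1.13).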

How the results depend on the processing

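The counts listed next changed at every Cq limit, while assays at least 1 cycle lower stayed at 0 from limit 32 to 36. Counts are given in the order detected by the p21 probe, by the control, by p21 alone, by the control alone and by both, then those of the last group at least 1 cycle higher. They were 10, 3, 7, 0, 3 and 2 at limit 32, 18, 4, 15, 1, 3 and 2 at 33, 28, 8, 21, 1, 7 and 3 at 34, 89, 32, 71, 14, 18 and 9 at 36, and 114, 57, 80, 23, 34 and 18 at 37. With any called Cq, and bounds set at the highest control Cq of the panel, they were 207, 119, 127, 39, 80 and 39. Assays at least 1 cycle lower numbered 1 at limit 37 and 12 with any called Cq. Bounds of at least 1 cycle made up 2.55% of all 745 assays as reported. They made up 0.805% at limit 32, 0.94% at 33, 1.74% at 34, 5.23% at 36, 8.05% at 37 and 14.4% with any called Cq. They made up 1.21% when centred on the median of the assays detected with both probes, and 0.94% on U6, SNORD38B and SNORD49A. Centring on all reference assays gave the same values as on these small RNAs, since no reference miRNA was detected with both probes. Among assays detected with both, 2 were higher and 1 lower after median centring, and 2 and 5 after small-RNA centring, and their median difference went from 0.71 to 0.00 and -0.94. let-7d* turned to -0.82 and -1.07, and miR-324-3p to -0.37 and -0.61. Centring on UniSp6 or UniSp3 left these counts within 1.5 times. Moving the control limit was chosen after seeing the data: moved by the small RNAs, the control detected 48 assays, 29 of them alone and 19 with both, and moved by UniSp3 it detected 3 alone. Of 530 values of single assays under the alternatives, the authors' deposited folds included, 205 moved by less than the 0.709 SD between panels and 319 by more, and the other 6 are the sign changes of let-7d* and miR-324-3p. The 0.709 includes the mean gap between panels and is 0.075 without it, so it is not the noise of a difference within a panel. A bound without a control Cq moves by exactly the change of limit or centre. For such bounds these counts follow from the settings and do not show how stable an assay is. In all, 22 of 109 values of differences had the opposite sign, the other 16 from differences under 1 cycle, and 113 of 421 bounds fell below 0, where they give no direction. The only like wells on 1 plate, UniSp3, had an SD of 1.13 cycles. No paired analysis was possible because each condition has 1 purification.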
